A study of Arabidopsis thaliana with 18 samples.

Results

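The untreated cultures of an Arabidopsis cell suspension experiment came as a pair of control sets, and the comparison of those sets is described here. The 6 arrays were chosen by their titles. The 3 titled as controls for Rose Bengal (RB) and hydrogen peroxide (HP) are called the RB/HP control, and the 3 titled as controls for MV and Indigo Carmine (IC) the MV/IC control. They are 6 of the 18 arrays of the series, and the other 12 are 3 replicates each of cultures given H2O2 at 500 μM or 1 of the dyes RB, MV and IC, each dye at 0.5 μM. All cultures were light-grown Arabidopsis cell suspensions (ACSC), grown at 24 °C and 50 μE m–2 s–1 and diluted every 7 days, and both control sets carry the treatment label none. For the treatments the paper describes 30 min in brighter light or in the dark, after acclimation, with control cultures exposed alike. The labels do not say which of these applies to each array. For RB and H2O2 the paper places the profiled treatments in the light, and it describes the RB comparison as one against low-light cultures. No genotype, allele or added agent separates the sets in the labels, and a date, passage or batch is not given for either of them, so that culture, harvest and array processing cannot be told apart within a difference between the sets. The methods name biological replicates. The p-values rest on a spread pooled within the 6 groups of all 18 arrays, treated ones included, and on these samples only. A number shared by the sets was not taken as a pairing.

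ACSC are undifferentiated cells that divide and feed on sugar and that, when grown in light, hold working chloroplasts. Cytosolic chaperones of the HSP70, HSP90, HSP101 and small heat shock families fold or disaggregate proteins, and most of their inducible members are switched on by heat shock factors within minutes of a rise in misfolded protein. Cells of suspension cultures can also start to make secondary walls, as xylem cells do, and their nutrient status changes with the age of the medium.

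The values are log2 RMA signals, a normalized brightness of each probe set, between 2.43 and 13.7 on the 6 arrays. Replicates of the RB/HP control lay further apart than those of the MV/IC control. Pairs of arrays differed by more than 1 on the log2 scale in 1231 to 2231 probe sets within the RB/HP control, in 310 to 607 within the MV/IC control and in 1302 to 3348 between the sets. The median SD of a probe set was 0.274 in the RB/HP control and 0.15 in the MV/IC control, and 74.6% of probe sets had the larger SD in the RB/HP control. RB/HP control 3 stood furthest from its group mean, with a root mean square deviation of 0.358, against 0.315 and 0.302 for the other RB/HP control arrays and 0.196, 0.238 and 0.192 for the MV/IC control arrays. The mean gap between the 3′ and 5′ probe sets of actin and GAPDH, a sign of shortened RNA, was 3.16, 2.75 and 3.56 in the RB/HP control. These lay on both sides of 2.91, 2.95 and 2.88 in the MV/IC control. Single gaps within this mean separated the sets in opposite directions. For 1 GAPDH pair the gap was 3.47, 2.91 and 3.34 in the RB/HP control and 2.27, 2.39 and 2.05 in the MV/IC control. For 1 actin pair it was 4.83, 4.63 and 5.32 in the RB/HP control and 5.57, 5.5 and 5.75 in the MV/IC control. The other actin and GAPDH pairs overlapped. The part of RNA quality in the differences below was examined only with the mean gap as a covariate in the fit. That fit called 1329 probe sets, 1109 of them also called without the covariate. Opposite gaps cancel in the mean, so it does not adjust for the single gaps, whose part was not tested.

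The sets differed in 1698 of 22746 probe sets, 7.47% of all, at an adjusted p under 0.05 (limma over all 18 arrays as 6 groups, with Benjamini–Hochberg adjustment). In the RB/HP control 640 of these were higher (2.81% of all) and 1058 lower (4.65%), and 658 of the calls were also over 1 in absolute log2 difference (2.89%), 237 above (1.04%) and 421 below (1.85%). An unadjusted p under 0.05 was reached by 25.4% of all probe sets, and in 26% the 3 arrays of one set lay outside the range of the other. Of the 1698 called, 1670 had no overlap between the sets (7.34% of all), so a lack of overlap adds little to a call. The genes named for the largest differences were also chosen on the condition that the sets did not overlap. The median difference over all probe sets was 0.03, the median absolute difference of the called ones 0.91, and the median 95% interval of a difference reached 0.392 to either side. After the median of each array was subtracted, which moved the median of all probe sets to 0.12, 50.5% of 1438 calls were higher in the RB/HP control, against 37.7% of the 1698. The count depended on the arrays and terms in the fit. With the 6 control arrays fitted alone, 24 probe sets passed (0.106%), 14 higher (0.0615%) and 10 lower (0.044%), and with a separate variance for each group 0 passed, while 2364 had an unadjusted p under 0.05. The count also moved with single arrays, to 458 without RB/HP control 1, 3724 without RB/HP control 3, 868 without MV/IC control 1, 898 without MV/IC control 2 and 386 without MV/IC control 3. With the replicate number as a block across the sets in all 18 arrays, a pairing that the labels do not give, 2917 were called, the 1698 among them, and with the same block over the 6 control arrays alone 1393, of which 932 were among the 1698.

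Transcripts of many cytosolic chaperones, 24 of 43, were lower in the RB/HP control than in the MV/IC control, in several cases by more than 10-fold. HSP70, an inducible cytosolic chaperone, had 7.40, 7.91 and 8.66 in the RB/HP control and 11.82, 12.95 and 13.33 in the MV/IC control. All 3 RB/HP control arrays lay below all 3 MV/IC control arrays, a difference of −4.71 or 26.2-fold (SE 0.544, adjusted p = 0.000529), which stayed called with any one array left out (−5.15 to −4.4). The most negative difference among all probe sets called was that of HSP70. At5g51440, a small heat shock protein, had 3.94, 3.97 and 5.30 in the RB/HP control and 7.44, 10.01 and 9.72 in the MV/IC control (−4.65, SE 0.897, adjusted p = 0.00889). Its level in the RB/HP control was near the lower end of the array values.

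HSP90.1, the inducible cytosolic HSP90, had 6.62, 7.54 and 8.49 in the RB/HP control and 10.74, 12.34 and 12.74 in the MV/IC control (−4.39, SE 0.706, adjusted p = 0.00374). HSP101, the disaggregase needed for acquired thermotolerance, had 4.99, 5.31 and 5.49 in the RB/HP control and 7.73, 9.71 and 10.11 in the MV/IC control (−3.92, SE 0.797, adjusted p = 0.0113). MBF1C, a transcriptional coactivator of the heat response, had 7.16, 5.75 and 8.17 in the RB/HP control and 9.69, 11.13 and 10.78 in the MV/IC control (−3.51, SE 0.6, adjusted p = 0.0051). None of these groups overlapped, and in both sets the array numbered 1 held the lowest HSP90.1 and HSP101. HSP101 lost its call without RB/HP control 1 and also without MV/IC control 3 (−3.45, adjusted p = 0.0621 without MV/IC control 3).

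The co-chaperones that hand substrates between HSP70 and HSP90 moved the same way. Hop3, an HSP70–HSP90 organizing protein, had 4.54, 4.74 and 6.28 in the RB/HP control and 7.03, 8.34 and 9.72 in the MV/IC control (−3.17, adjusted p = 0.0297). The DnaJ protein At2g20560 had 4.08, 3.55 and 5.68 in the RB/HP control and 7.20, 8.45 and 8.54 in the MV/IC control (−3.63, adjusted p = 0.00725). Members that are abundant without heat were lower as well, by a smaller step. Hsp70-2 had 8.77, 8.96 and 8.72 in the RB/HP control and 10.62, 11.36 and 11.32 in the MV/IC control (−2.29, adjusted p = 0.00137), and HSP81-2, an HSP90, 8.05, 8.85 and 8.85 in the RB/HP control and 10.59, 11.52 and 11.35 in the MV/IC control (−2.57, adjusted p = 0.00238). Neither overlapped between the sets, and both were named after their values were seen. Hop3 lost its call without RB/HP control 1, RB/HP control 2, MV/IC control 2 or MV/IC control 3 (−2.5, adjusted p = 0.139 without MV/IC control 3).

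Of 43 cytosolic heat shock proteins, heat shock factors and co-chaperones measured, 24 were lower and 1, the DnaJ protein At3g62190 (0.76), was higher, with a median difference of −1.68 where the median of all probe sets was 0.03. Many of the 43 are named only through published lists of transcripts changed under RB or H2O2 against the RB/HP control, so their count is not independent of those arrays. Among the 27 that the platform annotation names, 16 were lower and 1 higher (median −1.54). The narrower list of heat shock proteins and factors alone had 12 of 23 lower and none higher (median −2.24). Only 4 of these are named by the platform, 2 of them lower (median −1.31). The factor HSFA2 had 3.18, 3.36 and 2.83 in the RB/HP control and 3.47, 5.45 and 4.65 in the MV/IC control without being called (adjusted p = 0.278), and HSFA8 (−0.08) and HSF A4A (0.41) differed little. Small heat shock proteins varied widely within the MV/IC control. HSP17.6A had 4.38, 4.91 and 4.63 in the RB/HP control and 5.50, 9.76 and 8.63 in the MV/IC control (adjusted p = 0.0779). With 1 control array left out, between 11 (without RB/HP control 1) and 27 (without RB/HP control 3) of the 43 were called, and 3 with the 6 arrays fitted alone.

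**Figure D1:**
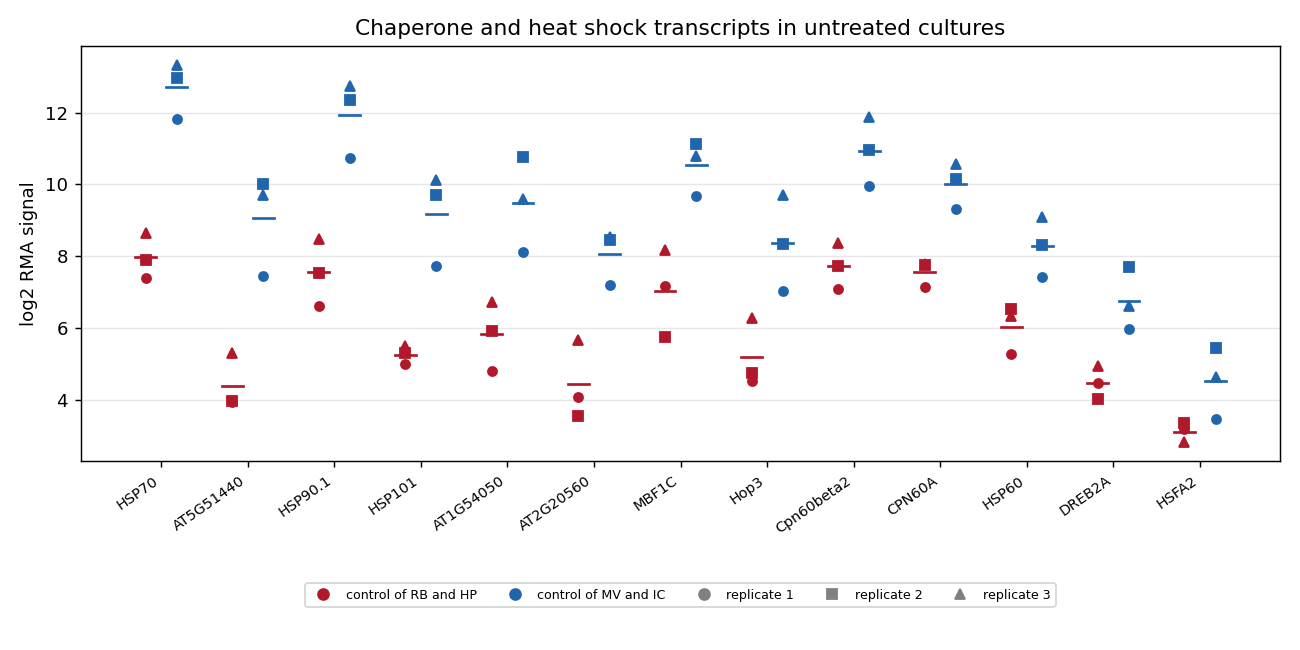
Log2 RMA signal of 13 chaperone and heat response transcripts in the RB/HP control (red, left of each pair) and the MV/IC control (blue, right), with 1 point per array, the symbol giving the replicate number and the line the mean of 3 arrays. The red points lie below the blue points for every transcript shown, by 4.71 on average for HSP70 and by 1.4 for HSFA2, which was not called.

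Chaperones of the organelles were mostly lower as well. Of 8 chaperonins and organelle HSP70 proteins, 7 were lower and 0 higher (median −1.53), and of the 4 that the platform names 3 were lower (median −1.02). Cpn60beta2, a chloroplast chaperonin that folds Rubisco among others, had 7.08, 7.74 and 8.38 in the RB/HP control and 9.97, 10.96 and 11.88 in the MV/IC control (−3.20, SE 0.546, adjusted p = 0.00507). Its partner CPN60A had 7.15, 7.77 and 7.78 in the RB/HP control and 9.32, 10.15 and 10.56 in the MV/IC control (−2.45, adjusted p = 0.00401). The mitochondrial HSP60 had 5.27, 6.52 and 6.34 in the RB/HP control and 7.43, 8.31 and 9.10 in the MV/IC control (−2.24, adjusted p = 0.015). The sets did not overlap in any of these, and in both of them array 1 was the lowest. HSP60 was no longer called without RB/HP control 1 or MV/IC control 3 (−1.83, adjusted p = 0.0794 without MV/IC control 3).

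Differences in folding and glycosylation in the endoplasmic reticulum were smaller. Of 22 transcripts 10 were lower and 0 higher (median −0.572), and of the 12 the platform names 3 were lower (median −0.486). An earlier and narrower list of 12 folding proteins had 3 lower and 0 higher (median −0.493), and of the 5 the platform names 0 were called (median −0.442). TIN1, which is induced by tunicamycin and so by blocked glycosylation, had 5.20, 5.64 and 5.43 in the RB/HP control and 7.11, 8.78 and 8.30 in the MV/IC control (−2.64, adjusted p = 0.00521). The protein disulfide isomerase PDIL2-2 had 6.66, 7.07 and 7.09 in the RB/HP control and 8.08, 8.44 and 7.92 in the MV/IC control (−1.21, adjusted p = 0.00411). Calnexin CNX1 had 10.36, 10.53 and 10.38 in the RB/HP control and 11.02, 10.93 and 11.06 in the MV/IC control (−0.58, adjusted p = 0.0178). No overlap was seen in these 3, but CNX1 lost its call without RB/HP control 1, MV/IC control 1 or MV/IC control 3 (adjusted p = 0.078 without MV/IC control 3), and with the replicate number as a block over the 6 control arrays (adjusted p = 0.0778). BZIP60 (0.32, adjusted p = 0.369) and BZIP28 (−0.84, adjusted p = 0.0779), the factors of the unfolded protein response, were not called. Between 4 (without RB/HP control 1) and 10 of the 22 were called with 1 array left out.

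Of 18 transcripts of secondary wall synthesis, 6 were lower in the RB/HP control and 0 higher. IRX15-L, required for xylan chains of normal length, had 5.79, 5.57 and 5.16 in the RB/HP control and 8.62, 7.30 and 8.06 in the MV/IC control (−2.49 or 5.6-fold, SE 0.49, adjusted p = 0.00995). PARVUS, a glycosyltransferase of xylan synthesis, had 5.34, 6.07 and 4.65 in the RB/HP control and 8.20, 7.17 and 7.76 in the MV/IC control (−2.35, adjusted p = 0.028). CESA4, a cellulose synthase of secondary walls, had 7.44, 7.70 and 6.88 in the RB/HP control and 9.48, 8.19 and 9.18 in the MV/IC control (−1.61, adjusted p = 0.0482). None of the 3 overlapped between the sets. IRX15-L stayed called with any one array left out, whereas PARVUS lost its call without RB/HP control 1 (adjusted p = 0.096), MV/IC control 1 or MV/IC control 3, and CESA4 in 5 of the 6 cases (adjusted p = 0.156 without MV/IC control 3).

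The partners of CESA4 in the same complex were not called. IRX3 had 8.12, 8.34 and 6.88 in the RB/HP control and 9.43, 8.55 and 9.43 in the MV/IC control (−1.36, adjusted p = 0.0896), and IRX1 8.68, 8.96 and 7.54 in the RB/HP control and 9.88, 8.98 and 9.68 in the MV/IC control (−1.12, adjusted p = 0.138). The xylem cysteine peptidases, which digest the content of tracheary elements, were high on all 6 arrays. XCP1 had 10.61, 10.44 and 9.74 in the RB/HP control and 12.44, 10.92 and 12.02 in the MV/IC control (adjusted p = 0.117), and XCP2 9.24, 8.64 and 8.10 in the RB/HP control and 11.38, 8.88 and 10.61 in the MV/IC control (adjusted p = 0.186). XCP2 overlapped and XCP1 did not. Over the whole list of 18 secondary wall transcripts, XCP1 and XCP2 included, the median was −1.57. Only 5 are named by the platform, 2 of them lower (median −1.77). Without RB/HP control 1, 1 of the 18 was called. In bulk RNA, fewer cells that make secondary walls and less of this RNA per cell cannot be told apart.

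The secondary wall transcripts also varied within each set, and they varied together. RB/HP control 3 was the lowest of its set for 16 of the 18 and MV/IC control 2 the lowest of its set for 17. The list medians were 7.30, 7.22 and 6.06 in the RB/HP control and 9.07, 7.95 and 8.63 in the MV/IC control. The array that was low for these transcripts therefore had a different number in each set.

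Fasciclin-like arabinogalactan proteins, anchored glycoproteins of the wall, were lower in 4 of 7 cases (median −1.22), all 7 being named through the tables of the study. Of all 858 probe sets of 1 locus named only by those tables, 97 were lower and 69 higher. FLA16 had 6.44, 6.51 and 5.39 in the RB/HP control and 8.67, 7.84 and 8.87 in the MV/IC control (−2.35, adjusted p = 0.0107). FLA15 had 5.59, 5.77 and 4.93 in the RB/HP control and 7.89, 6.74 and 8.04 in the MV/IC control (−2.12, adjusted p = 0.0106). FLA11, a marker of secondary wall formation, had 10.06, 9.72 and 8.40 in the RB/HP control and 11.60, 10.74 and 11.44 in the MV/IC control, where its adjusted p of 0.0511 missed the threshold. Without MV/IC control 3, 0 of the 7 were called, and FLA16 had an adjusted p of 0.0564. The class III peroxidase PER64 had 7.16, 7.02 and 5.90 in the RB/HP control and 8.85, 8.34 and 8.79 in the MV/IC control (−1.96, adjusted p = 0.0092). Its call held with any one array left out. Of 51 cell wall polysaccharide synthesis transcripts of all kinds, 9 were lower and 2 higher (median −0.177). CSLB01, a cellulose synthase-like protein, ran against the list with 5.27, 5.73 and 6.56 in the RB/HP control and 4.23, 3.92 and 3.75 in the MV/IC control (1.89, adjusted p = 0.00176).

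Most tubulins and actins, the building blocks of the cytoskeleton, were lower too, 7 of 10. TUA4, an α-tubulin, had 9.20, 10.02 and 9.36 in the RB/HP control and 11.37, 11.28 and 11.31 in the MV/IC control (−1.79 or 3.47-fold, SE 0.24, adjusted p = 0.00123). TUB6, a β-tubulin, had 9.06, 9.52 and 8.91 in the RB/HP control and 10.27, 10.03 and 10.25 in the MV/IC control (−1.02, adjusted p = 0.0107). ACT11, an actin, had 7.65, 8.30 and 7.92 in the RB/HP control and 8.93, 9.06 and 9.27 in the MV/IC control (−1.13, adjusted p = 0.0453). None of the 3 overlapped between the sets, with RB/HP control 2 the highest of its set in each and the MV/IC control arrays close together for TUA4. Of 10 tubulins and actins 7 were lower and 0 higher (median −0.973), 6 of 9 by the platform names alone (median −0.923), and between 4 (without MV/IC control 3) and 8 with 1 array left out. TUA4 held its call throughout, whereas ACT11 lost it in 5 of the 6 cases and TUB6 without MV/IC control 3 (adjusted p = 0.0506).

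Some of these are common reference transcripts. Of 6 such transcripts TUA4, TUB6 and the glyceraldehyde-3-phosphate dehydrogenase GAPC1 (−0.84, adjusted p = 0.0191) were lower, whereas GAPC2 had 12.22, 12.40 and 12.28 in the RB/HP control and 12.28, 12.29 and 12.20 in the MV/IC control (0.04, adjusted p = 0.86). EIF4A-2 (−0.32, adjusted p = 0.281) and PEX4 (−0.31, adjusted p = 0.168) were not called. GAPC1 lost its call without RB/HP control 1, MV/IC control 2 or MV/IC control 3 (adjusted p = 0.0833 without MV/IC control 3), and with the number as a block over the 6 control arrays (adjusted p = 0.0581).

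Transcripts of the nucleolus and RNA polymerase I, which build ribosomes, were lower in 5 of 11 cases and higher in 0 (median −0.489), with 3 of 9 lower by the platform names and 3 of 8 in an earlier list of ribosome biogenesis (median −0.488). The pescadillo-related At5g14520 had 6.96, 7.45 and 7.85 in the RB/HP control and 8.35, 8.76 and 8.96 in the MV/IC control (−1.27, adjusted p = 0.00485). Nucleolin NUC-L1 had 7.96, 8.48 and 8.59 in the RB/HP control and 9.08, 9.10 and 9.26 in the MV/IC control (−0.81, adjusted p = 0.00835). NRPA2, a core subunit of RNA polymerase I, had 5.31, 5.64 and 5.66 in the RB/HP control and 6.08, 6.77 and 6.85 in the MV/IC control (−1.03, adjusted p = 0.0178). All 3 were separated between the sets, and array 1 was lowest in each set. Of the 3, NRPA2 lost its call with an array left out, without RB/HP control 1, MV/IC control 2 or MV/IC control 3 (adjusted p = 0.0879 without MV/IC control 3).

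Other large negative differences fell outside these groups. GolS1, a galactinol synthase of the raffinose pathway, had 4.97, 5.77 and 5.53 in the RB/HP control and 7.43, 10.68 and 9.52 in the MV/IC control (−3.78, adjusted p = 0.0211). FBA6, a cytosolic aldolase of glycolysis, had 7.49, 8.87 and 8.47 in the RB/HP control and 10.23, 11.64 and 11.34 in the MV/IC control (−2.79, adjusted p = 0.00709). BCAT4, which starts the chain elongation of methionine for glucosinolates, had 3.72, 3.59 and 3.71 in the RB/HP control and 5.29, 7.26 and 6.50 in the MV/IC control (−2.68, adjusted p = 0.00238). GolS1 and FBA6 were lowest on array 1 of each set, and BCAT4 was nearly level across the RB/HP control and spread across the MV/IC control. The glutathione transferase GSTU5 had 5.55, 5.68 and 7.24 in the RB/HP control and 8.29, 9.18 and 8.58 in the MV/IC control (−2.53, adjusted p = 0.00657). Of these 4, GolS1 was no longer called without RB/HP control 1 (adjusted p = 0.0904), MV/IC control 2 or MV/IC control 3.

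**Figure D2:**
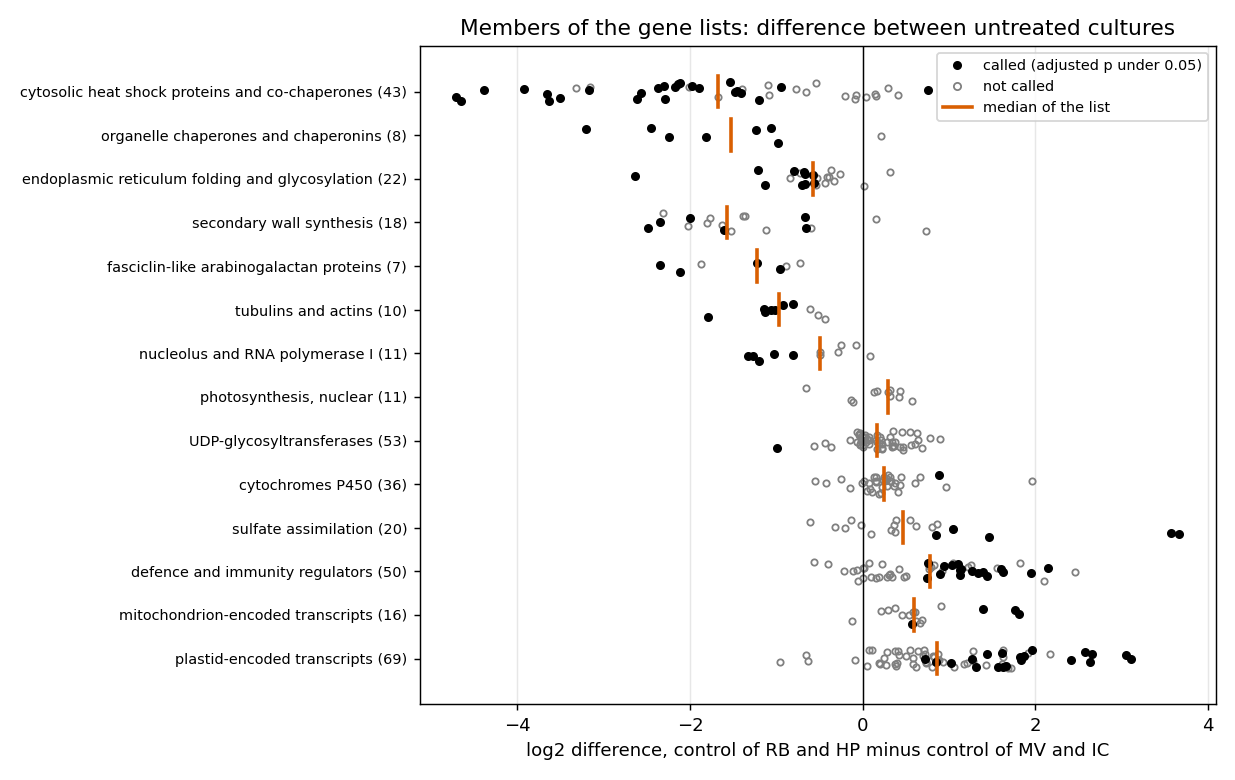
Difference between the control sets on the log2 scale (RB/HP control minus MV/IC control) for each member of 14 gene lists, with filled points called at an adjusted p under 0.05, open points not called and a bar at the median of the list (number of members in brackets). Chaperone, secondary wall, tubulin and nucleolus lists lie to the left of 0, with a median of −1.68 for cytosolic chaperones, and sulfate, defence and organelle-encoded lists to the right, with a median of 0.86 for plastid-encoded transcripts.

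Of 69 probe sets for transcripts encoded in the plastid genome, 20 were higher in the RB/HP control and 0 lower, the difference was positive for 65, and their median was 0.86. The labelling kit amplifies from poly(A) tails, which plastid and mitochondrial transcripts largely lack, so that their signals are no simple measure of abundance. PetL, a small subunit of the cytochrome b6f complex that carries electrons between the photosystems, had 8.90, 8.80 and 8.80 in the RB/HP control and 4.77, 6.13 and 6.44 in the MV/IC control (3.05 or 8.29-fold, SE 0.567, adjusted p = 0.00725, probe set petL). Its neighbour petG had 8.01, 7.92 and 7.87 in the RB/HP control and 4.46, 5.34 and 6.01 in the MV/IC control (2.66, adjusted p = 0.00505). Both were nearly level over the RB/HP control and varied over the MV/IC control, where array 1 was the lowest, and the sets did not overlap.

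Photosystem and carbon fixation transcripts showed the same direction. PsbT, a small subunit of photosystem II (probe set psbT), had 6.53, 7.94 and 6.40 in the RB/HP control and 3.67, 4.08 and 3.79 in the MV/IC control (3.11, adjusted p = 0.01). PsaI of photosystem I (probe set psaI) had 9.87, 9.44 and 9.68 in the RB/HP control and 6.21, 6.88 and 8.17 in the MV/IC control (2.58, adjusted p = 0.0114), and it missed the threshold without RB/HP control 1 (adjusted p = 0.0529). The large subunit of Rubisco, rbcL, had 10.35, 9.48 and 9.47 in the RB/HP control and 7.61, 8.83 and 8.02 in the MV/IC control (1.61, adjusted p = 0.0075). All were separated between the sets, and rbcL missed the threshold with the number as a block over the 6 control arrays (adjusted p = 0.0533). The reaction centre protein psbA had 9.37, 10.25 and 8.81 in the RB/HP control and 7.10, 8.40 and 7.77 in the MV/IC control, without passing (1.72, adjusted p = 0.0659).

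The plastid's own gene expression machinery and fatty acid synthesis were included. AccD, a subunit of acetyl-CoA carboxylase (probe set accD), had 7.34, 6.58 and 7.47 in the RB/HP control and 4.24, 4.60 and 5.31 in the MV/IC control (2.41, adjusted p = 0.00328). The ribosomal protein gene rpl20 had 8.28, 8.42 and 8.89 in the RB/HP control and 4.95, 6.32 and 6.45 in the MV/IC control (2.63, adjusted p = 0.0225), and rpl36 8.56, 8.51 and 8.42 in the RB/HP control and 6.26, 6.43 and 7.36 in the MV/IC control (1.82, adjusted p = 0.00567). Neither overlapped, but rpl20 lost its call without RB/HP control 1, MV/IC control 1 or MV/IC control 3 (adjusted p = 0.0844 without MV/IC control 1). By complex, 5 of 15 ribosomal proteins were higher (median 0.888), 3 of 6 cytochrome b6f subunits (median 1.35), 2 of 5 photosystem I subunits (median 1.63), 3 of 15 photosystem II subunits (median 0.638), 2 of 10 NADH dehydrogenase-like subunits (median 0.778), 1 of 6 ATP synthase subunits (median 0.408) and 1 of 4 RNA polymerase subunits (median 0.879).

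The difference was not even along the plastid genome. PsbF and psbE, which encode the cytochrome b559 of photosystem II and lie next to petL, had differences of −0.63 (psbF, adjusted p = 0.153) and −0.65 (psbE, adjusted p = 0.269), against 3.05 for petL. The largest negative difference was −0.96 for ndhA, with 7.63, 4.91 and 7.76 in the RB/HP control and 8.36, 6.51 and 8.31 in the MV/IC control (adjusted p = 0.497), where the groups overlapped. Within the MV/IC control, array 1 was the lowest for 47 of the 69 and array 3 the highest for 46, and the list medians were 8.28, 7.92 and 8.13 in the RB/HP control and 6.18, 6.43 and 7.77 in the MV/IC control. By that median alone, MV/IC control 3 lay close to the RB/HP control arrays, whereas for petL, petG and rbcL it lay well below all 3 of them. Between 9 (without RB/HP control 1) and 23 (without RB/HP control 3) of the 69 were called with 1 array left out, and the list median ranged over these fits between 0.643 and 1.29.

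**Figure D3:**
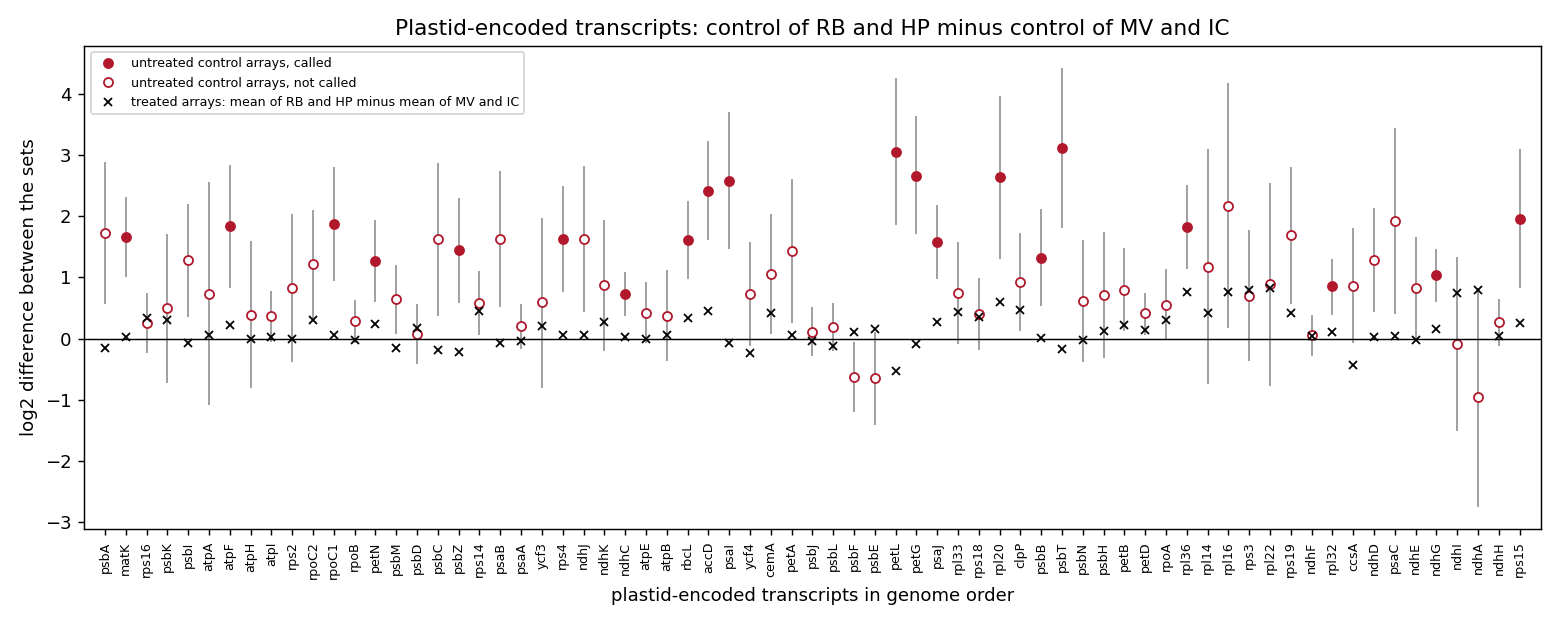
Difference between the control sets on the log2 scale (RB/HP control minus MV/IC control) for 69 plastid-encoded transcripts in genome order, filled where called, with grey lines for the 95% interval, and crosses for the difference over treated arrays (mean of RB and HP minus mean of MV and IC). Of the points for untreated cultures 65 lie above 0, up to 3.11 for psbT, whereas the crosses lie around 0 with a median of 0.06.

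Of 11 nuclear genes of photosynthesis, 0 were called in either direction (limma, median 0.285), and 8 had a positive difference. Over all probe sets 7.47% were called and 12286 of 22746 had a positive difference, so few calls would fall in a list of this size. Whether they differed from the plastid-encoded transcripts was not tested. LHCB4.1, a light-harvesting protein, had 10.25, 10.27 and 9.31 in the RB/HP control and 9.91, 9.96 and 9.56 in the MV/IC control (0.13, adjusted p = 0.778). RCA, Rubisco activase, had 10.64, 11.09 and 10.24 in the RB/HP control and 11.37, 11.21 and 11.37 in the MV/IC control (−0.66, adjusted p = 0.0875). RCA and LHCB4.1 were high on all 6 arrays, which are labelled as light-grown cells. Markers of other tissues were near the lower end of the values. The meristem gene CLV3, the guard cell genes SPCH, MUTE and FMA and the root hair genes EXPA7 and EXPA18 lay between 2.87 and 4.34 on every control array, and of 9 such markers, XCP1, XCP2 and SCR included, 0 were called (median 0.175). The exceptions in level were the xylem genes XCP1 and XCP2 and the root gene SCR, with 6.35, 6.62 and 6.09 in the RB/HP control and 6.04, 5.77 and 5.99 in the MV/IC control.

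Mitochondrion-encoded transcripts were higher in 4 of 16 cases and lower in 0 (median 0.594, positive for 15). Cox1, a subunit of cytochrome c oxidase (probe set cox1), had 11.33, 11.37 and 10.77 in the RB/HP control and 9.51, 10.12 and 9.63 in the MV/IC control (1.4, adjusted p = 0.0201). OrfX, annotated as a Sec-independent protein translocase (probe set orfX), had 7.53, 7.24 and 6.88 in the RB/HP control and 5.08, 5.61 and 5.53 in the MV/IC control (1.81, adjusted p = 0.00367). These did not overlap, and nad4 (1.77, adjusted p = 0.0374) and nad7 (0.57, adjusted p = 0.04), both of complex I, were the other calls. Of the 4, orfX held its call with any one array left out, 1 of the 16 was called without RB/HP control 1, and nad7 was not called with the number as a block over the 6 control arrays (adjusted p = 0.13). In both sets array 2 was the highest for most of the list (13 and 14 of 16) and array 3 the lowest (13 and 11 of 16).

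Some transcripts of sulfate uptake and the response to low sulfur, 5 of 20, were higher in the RB/HP control. LSU1, which is induced when sulfur is short, had 8.76, 10.78 and 6.55 in the RB/HP control and 4.66, 5.89 and 4.54 in the MV/IC control (3.67 or 12.7-fold, SE 0.891, adjusted p = 0.0243). At5g26220, a ChaC-like protein of the family that degrades glutathione, had 9.21, 10.55 and 9.47 in the RB/HP control and 6.11, 7.24 and 5.15 in the MV/IC control (3.57, SE 0.603, adjusted p = 0.00482). BGLU28, a β-glucosidase of sulfur-starved plants, had 10.28, 11.01 and 10.78 in the RB/HP control and 9.08, 9.49 and 9.11 in the MV/IC control (1.47, adjusted p = 0.0294). The sets did not overlap in any of them, although LSU1 varied widely within the RB/HP control, and array 2 was the highest of each set in all 3. LSU1 lost its call without RB/HP control 1, RB/HP control 2, MV/IC control 1 or MV/IC control 3 (adjusted p = 0.0987 without MV/IC control 3) and BGLU28 in 5 of 6 cases (adjusted p = 0.106 without MV/IC control 3), whereas At5g26220 kept it.

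The assimilation enzymes were less far apart. SERAT2;1, a serine acetyltransferase that feeds cysteine synthesis, had 9.55, 9.37 and 8.76 in the RB/HP control and 8.24, 8.13 and 8.15 in the MV/IC control (1.05, adjusted p = 0.0139). The sulfate transporter SULTR1;2 had 5.92, 6.76 and 5.88 in the RB/HP control and 5.41, 5.51 and 5.10 in the MV/IC control (0.85, adjusted p = 0.0321). The adenylylsulfate reductases APR1 (0.37), APR2 (0.36) and APR3 (0.80) and LSU2 (0.33) were not called, nor was GSH1 of glutathione synthesis (−0.61, adjusted p = 0.0581). In all 5 of 20 were higher and 0 lower (median 0.471), with BGLU28 alone of the 5 that the platform names, and array 2 was the highest of its set for 17 of 20 in the RB/HP control and 16 of 20 in the MV/IC control. Without RB/HP control 1, 1 of the 20 was called. SULTR1;2 lost its call in 5 of the 6 cases (adjusted p = 0.137 without MV/IC control 3) and with the number as a block over the 6 control arrays (adjusted p = 0.0505), and SERAT2;1 without RB/HP control 1 (adjusted p = 0.0728) or MV/IC control 3.

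Of 50 regulators of defence and immunity, 17 were higher in the RB/HP control and 0 lower (median 0.782), and of the 19 named by the platform 8 were higher (median 0.833). This list was drawn up after the annotation had been read. An earlier list of 19 salicylic acid and pathogen defence transcripts had 1 higher, WRKY53, and 0 lower (median 0.44), where 7.47% of all probe sets were called. WRKY53, a factor of senescence and defence, had 9.76, 8.46 and 9.01 in the RB/HP control and 7.71, 6.45 and 6.61 in the MV/IC control (2.15, adjusted p = 0.0395). WRKY6, a factor of senescence and phosphate supply, had 9.84, 9.18 and 9.10 in the RB/HP control and 8.04, 7.74 and 7.45 in the MV/IC control (1.63, adjusted p = 0.00816). PEN2, a glycosyl hydrolase of resistance to fungal entry, had 9.71, 7.97 and 8.22 in the RB/HP control and 7.05, 6.71 and 6.28 in the MV/IC control (1.95, adjusted p = 0.0275). In each of these array 1 was the highest of its set, as it was for 36 of the 50 in the RB/HP control and 30 of the 50 in the MV/IC control. WRKY6 kept its call with any one array left out, and WRKY53 (adjusted p = 0.17) and PEN2 (adjusted p = 0.133) lost theirs without RB/HP control 1 and also without MV/IC control 2 or MV/IC control 3.

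Susceptibility factors and ubiquitin ligases were among the higher members. MLO2, on which powdery mildew depends, had 9.26, 8.45 and 8.57 in the RB/HP control and 7.64, 7.37 and 7.45 in the MV/IC control (1.27, adjusted p = 0.0272). DMR6, an oxygenase on which downy mildew depends, had 7.47, 7.20 and 6.87 in the RB/HP control and 6.51, 5.90 and 6.01 in the MV/IC control (1.04, adjusted p = 0.00676). PUB22, a U-box ubiquitin ligase that dampens immune responses, had 6.49, 5.84 and 5.46 in the RB/HP control and 4.81, 4.30 and 4.49 in the MV/IC control (1.4, adjusted p = 0.0445). MLO2, DMR6 and PUB22 were named after their values were seen, and none overlapped between the sets. The osmotin OSM34 had 9.82, 10.02 and 9.83 in the RB/HP control and 8.52, 8.39 and 7.96 in the MV/IC control (1.60, adjusted p = 0.00121), and it was also called with the 6 control arrays fitted alone (adjusted p = 0.0487). MLO2 lost its call in 4 (adjusted p = 0.131) and PUB22 in 5 (adjusted p = 0.191) of the 6 leave-one-out fits, both most clearly without RB/HP control 1, and between 7 (without RB/HP control 1) and 22 (without RB/HP control 3) of the 50 were called. With the mean 3′–5′ gap as a covariate, 9 of the 50 were higher and 1 lower. WRKY70 (−0.40), PAD4 (0.02) and MLO1 (0.00) were not called.

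Enzymes and proteins secreted to the wall were split. Of 8 class III peroxidases in an earlier list 0 were higher and 1, PER64, lower (median 0.176), and of 20 in a list drawn up after the annotation had been read 4 were higher and 1, again PER64, lower (median 0.476). At5g14130 had 7.20, 7.56 and 7.38 in the RB/HP control and 4.64, 3.90 and 4.52 in the MV/IC control (3.02 or 8.13-fold, SE 0.307, adjusted p = 0.000283), and At5g17820 7.50, 7.61 and 7.26 in the RB/HP control and 6.17, 6.25 and 5.14 in the MV/IC control (1.60, adjusted p = 0.00305). Both were separated between the sets and kept their calls with any one array left out. Among 18 extensins, germins and RALF peptides 6 were higher and 2, RALFL24 (−0.98) and RALFL31 (−0.93), lower (median 0.255). Of the 12 that the platform names, 1 was higher and 2 lower (median 0.144), so most of the higher calls rest on names from the tables of the study. The extensin EXT4, a structural wall protein, had 8.97, 9.10 and 8.88 in the RB/HP control and 7.72, 7.89 and 6.75 in the MV/IC control (1.53, adjusted p = 0.0209). GLP9, a germin-like protein, had 8.38, 8.40 and 8.57 in the RB/HP control and 7.45, 7.21 and 6.12 in the MV/IC control (1.53, adjusted p = 0.00816). In both, MV/IC control 3 was the lowest array, and without it EXT4 was not called (1.17, adjusted p = 0.106) and 2 of the 18 were.

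The smallest adjusted p of any named gene belonged to MLP-300B, a myrosinase-binding protein-like protein, with 6.79, 6.48 and 6.70 in the RB/HP control and 3.97, 4.09 and 3.87 in the MV/IC control (2.68 or 6.41-fold, SE 0.131, adjusted p = 3.32e-08). The arrays of each set were close together, and the call held with the 6 control arrays alone (adjusted p = 0.00839). PHT1;3, a high-affinity phosphate transporter, had 11.99, 11.62 and 11.71 in the RB/HP control and 10.02, 9.85 and 9.78 in the MV/IC control (1.89, adjusted p = 0.00374, and 0.0224 with the 6 arrays alone). Other phosphate genes were called in either direction. Of 12 phosphate transporters and purple acid phosphatases 2 were higher and 2 lower (median 0.04), with PAP20 (1.18) higher and PAP2 (−0.86) and PAP85 (−1.04) lower. CLE44, a precursor of a peptide that holds back xylem formation, had 7.25, 7.21 and 7.79 in the RB/HP control and 4.27, 5.49 and 4.12 in the MV/IC control (2.79, adjusted p = 0.00115). CEP1, a cysteine endopeptidase active in programmed cell death, had 7.71, 5.92 and 8.35 in the RB/HP control and 4.06, 4.60 and 4.51 in the MV/IC control (2.94, adjusted p = 0.00462). SAG29, a sugar transporter of senescence, had 5.60, 5.86 and 6.21 in the RB/HP control and 4.28, 4.43 and 4.40 in the MV/IC control (1.52, adjusted p = 0.000297). None of the sets overlapped for these, and none of the 3 lost its call with an array left out.

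Among large families of detoxification, only the glutathione transferases held calls in both directions. Of 53 UDP-glycosyltransferases 0 were higher and 1, UGT74B1 of glucosinolate synthesis (−0.99), lower (median 0.173), and without RB/HP control 3 10 were called. Of 36 cytochromes P450 1, CYP71B6 (0.88), was higher and 0 lower (median 0.245), with 4 called without RB/HP control 3. Both families were mostly near the lower end of the values. Their list medians on the control arrays lay between 3.6 and 4.12 for the UDP-glycosyltransferases and between 3.33 and 3.91 for the cytochromes P450. All probe sets with a mean between 2 and 4 had a median difference of 0.122 and few calls. Of 27 glutathione transferases GSTU27 (2.1) and GSTU8 (2.18) were higher and GSTU5 and GSTF8 (−1.35) lower (median 0.152), where 7.47% of all probe sets were called. Among hormone lists, 3 of 18 auxin response transcripts were higher, the auxin-conjugating enzymes GH3.17 (1.4), WES1 (1.17) and GH3.1 (0.71), while 0 of 12 cytokinin response transcripts were called and MYC2 (−1.4), the main factor of jasmonate signalling, was the only one of 8 jasmonate transcripts that was called. GH3.17 and GSTU27 kept their calls with any one array left out, and WES1 (adjusted p = 0.121 without MV/IC control 3), GSTU8 (adjusted p = 0.131 without RB/HP control 1), MYC2 (adjusted p = 0.107 without RB/HP control 1), UGT74B1 (adjusted p = 0.137 without RB/HP control 1), CYP71B6 (adjusted p = 0.102 without RB/HP control 1), GSTF8 (adjusted p = 0.0934 without MV/IC control 3) and GH3.1 (adjusted p = 0.0728 without MV/IC control 3) did not. No call was made among 7 core histones (median −0.314), 10 genes of metal homeostasis (median 0.148), 9 of flavonoid synthesis (median 0.228) and 6 aquaporins (median −0.03). With 7.47% of all probe sets called, lists this short would hold few calls, so these zeros say little about the genes.

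**Figure D4:**
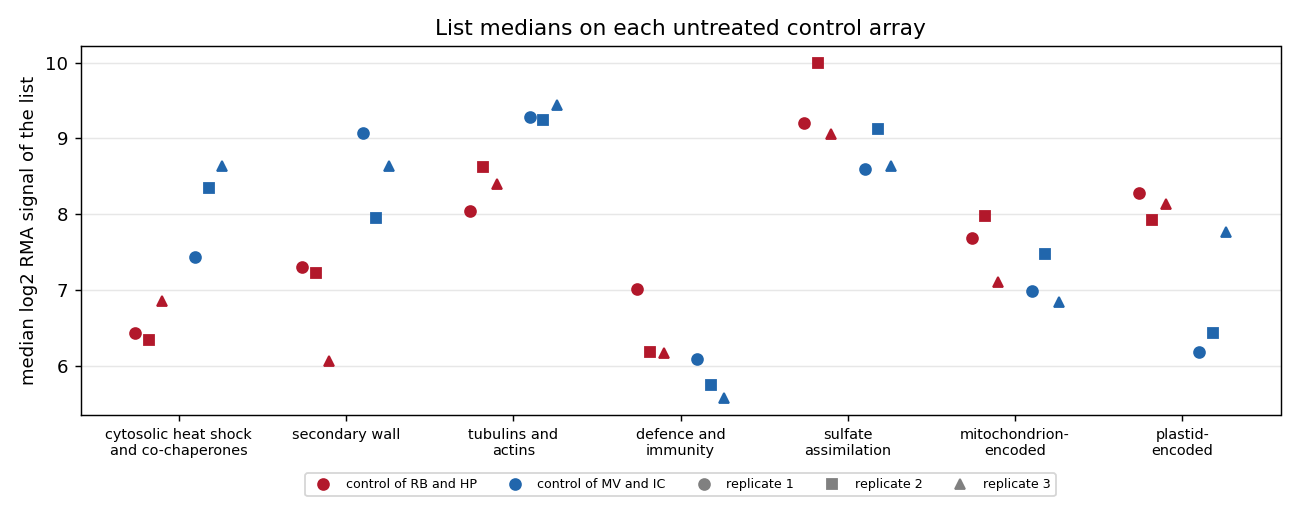
Median log2 RMA signal of 7 gene lists on each untreated control array, RB/HP control in red (left) and MV/IC control in blue (right), with the symbol giving the replicate number. The colours are apart for chaperones (6.43, 6.34 and 6.86 in the RB/HP control and 7.43, 8.34 and 8.63 in the MV/IC control) and overlap for sulfate assimilation, where array 2 is the highest of both sets.

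The 12 treated arrays give a second view of the sets, since they share no array with the controls, although each set received other agents. RB and HP arrays differed from MV and IC arrays in 3516 probe sets (15.5% of all). HP alone differed in 1424 (6.26% of all, with 4.11% of all higher). RB alone differed in 3134 (13.8% of all, with 7.12% of all lower). Of the 1698 probe sets called between the controls, 1559 (91.8%) had the same sign between the treated arrays and 926 (54.5%) were called there with it, 56.1% of the higher and 53.6% of the lower ones, these being 26.3% of the 3516, and 7 were called with the opposite sign. The share with the same sign over all probe sets is not given, so the 91.8% has no background beside it. The difference in the controls exceeded or fell short of that in the treated arrays in 70 probe sets (0.308%), 8 (0.0352%) with a positive and 62 (0.273%) with a negative difference of differences. Of the gene lists, that test called 0 of 43 cytosolic chaperones, 0 of 18 secondary wall transcripts, 0 of 16 mitochondrion-encoded, 1 of 69 plastid-encoded, 1 of 20 sulfate and 3 of 50 defence transcripts. HSP70 averaged 11.35 ± 0.832 in RB and 10.46 ± 0.809 in HP against 12.73 ± 0.595 in MV and 12.70 ± 0.793 in IC (SD, n = 3 each), a difference of −1.81 (adjusted p = 0.00481) beside −4.71 in the controls, and 12 of the 43 cytosolic chaperones were lower and 3 higher (median −0.772). For secondary walls 16 of 18 were lower in the treated arrays (median −1.96), for sulfate assimilation 15 of 20 higher (median 1.11) and for defence 34 of 50 higher (median 1.18). Many of these members are named only through published lists of transcripts changed under RB or H2O2, so the counts are not independent of the treated arrays. Of 858 probe sets named only that way, 259 were higher and 220 lower. Among members the platform names, 4 of 5 secondary wall transcripts were lower, and 3 of 5 sulfate and 13 of 19 defence transcripts higher. The plastid-encoded transcripts had 1 of 69 higher (median 0.06) and the mitochondrion-encoded 0 of 16 called in either direction (median −0.203). MLP-300B averaged 5.21 ± 0.166 in RB and 6.63 ± 0.145 in HP against 3.95 ± 0.00947 in MV and 3.64 ± 0.194 in IC, a difference of 2.13 (adjusted p = 1.51e-09).

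**Figure D5:**
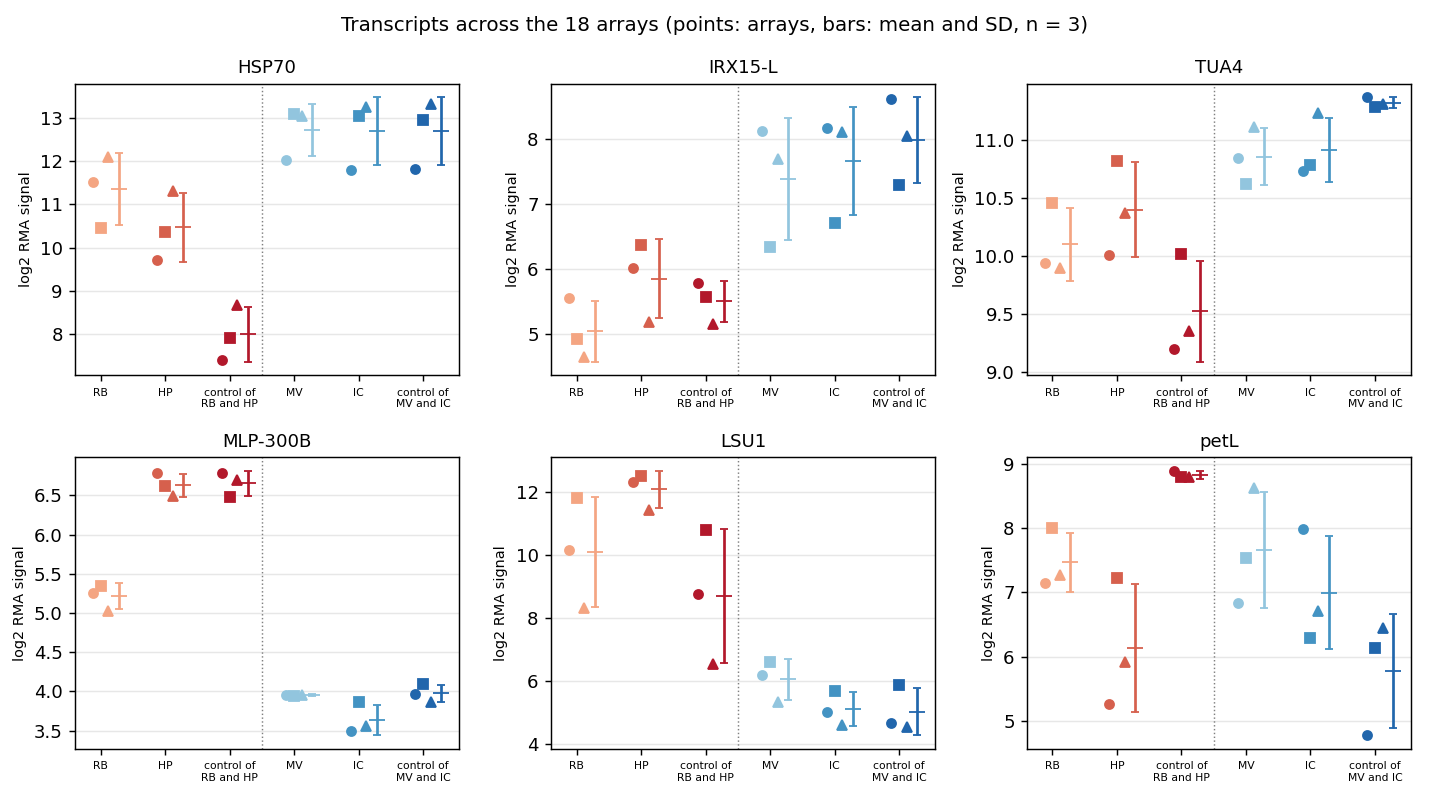
Log2 RMA signal of HSP70, IRX15-L, TUA4, MLP-300B, LSU1 and petL on all 18 arrays, with 1 point per array, bars for mean and SD of 3 arrays and a dotted line between the sets, RB, HP and their control to its left. MLP-300B and LSU1 are higher in all 3 groups left of the line than in any group right of it, HSP70 is lowest in the RB/HP control, and petL is higher in the RB/HP control (8.90, 8.80 and 8.80) than in any other group.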

How the data were processed

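RNA of 18 Arabidopsis cell suspension samples was hybridised to ATH1 arrays. The deposited values are log2 signals that the authors made with RMA in affy (version not given in the sources used here), which corrects background, quantile-normalizes and summarises the probes of a set; whether the 18 arrays were normalized in 1 run is not stated. They hold no counts, so the number of arrays limits the precision. After 64 control probe sets were left out, 22746 were fitted with limma 3.58.1 (R 4.3.3) over all 18 arrays as 6 groups (12 residual and 3.37 prior degrees of freedom), and p-values were adjusted by Benjamini–Hochberg over all of them. A call is an adjusted p under 0.05, and each difference is RB/HP control minus MV/IC control. The fit was run on simulated data with independent noise of equal spread in all groups. The control sets differ in spread, so that run does not show how the fit behaves on them.

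Names came from the platform annotation (14016 probe sets) and, for 895 others, from the tables of the study, whose transcripts were picked for changes under RB or H2O2. Of 858 such probe sets of 1 locus, 69 were higher and 97 lower in the RB/HP control, so lists that rest on them hold more calls. A table of RefSeq genes (TAIR10.1) served for names and plastid gene order. The 14371 probe sets of exactly 1 locus were eligible for naming. Named genes are the 15 largest positive and 15 largest negative differences among called probe sets that did not overlap between the sets, up to 4 called members of each list, the 5 probe sets with the largest SD in each set, reference transcripts and tissue markers; HSP81-2, Hsp70-2, HSFA2, rbcL, psbA, accD, psaI, psbE, psbF, ndhA, rpl36, IRX1, IRX3, FLA11, RCA, LHCB4.1, LSU2, SULTR1;2, MLO2, DMR6, PUB22 and others given only as list values were chosen after their values were seen. The comparison, the members and the lists were chosen with earlier results of these data known, and further lists (chaperones of cytosol and organelles, glycosylation, secondary walls, fasciclin-like proteins, tubulins and actins, defence regulators, the longer peroxidase list, extensins, phosphate transporters, nucleolus, mitochondrial transcripts) were drawn up after the annotation had been read.

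The labels pair no samples across the sets. Deviations from the group means nevertheless correlated across probe sets between same-numbered arrays (0.244, 0.409 and 0.434) and not between other numbers (−0.383 to −0.0988). The 3 arrays of a group against 3 allow no exact permutation p under 0.1, so single values were tested only in the fit. Alternatives covered the arrays in the fit, normalization, weights, moderation, a dim probe set filter, blocks, thresholds and each array left out.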

Additional observations from a re-analysis of the deposited data

Results flagged for a closer look

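For 5 named genes the difference between the control sets departed from that between the treated arrays (mean of RB and HP minus mean of MV and IC) by a test of the difference of differences in limma. DREB2A, a factor of the heat and drought response, had 4.48, 4.04 and 4.94 in the RB/HP control and 5.98, 7.69 and 6.62 in the MV/IC control (−2.28), and averaged 9.79 in RB and 7.08 in HP against 7.93 in MV and 6.35 in IC (1.3), a departure of −3.57 (adjusted p = 0.0336). MYC2 differed by −1.4 in the controls and by 0.75 in the treated arrays, with 9.97 in RB and 8.77 in HP against 8.36 in MV and 8.88 in IC, a departure of −2.15 (adjusted p = 0.0356). ERF5, an ethylene response factor, differed by 0.71 in the controls and by 2.56 in the treated arrays, with 7.81 in RB and 5.01 in HP against 3.85 in MV and 3.86 in IC, a departure of −1.85 (adjusted p = 0.00104).

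SERAT2;1 differed by 1.05 in the controls and by 3.05 in the treated arrays, with 10.75 in RB and 11.84 in HP against 8.32 in MV and 8.18 in IC, a departure of −1.99 (adjusted p = 0.00451). The plastid gene petL ran the other way, with 3.05 in the controls and −0.53 in the treated arrays, where it averaged 7.47 in RB and 6.13 in HP against 7.66 in MV and 7.00 in IC, a departure of 3.58 (adjusted p = 0.0378). The treated arrays carry the effects of 4 agents, which cannot be told apart from the sets here.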

How the results depend on the processing

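The number of calls depended on the fit. With the 6 control arrays fitted alone, 24 probe sets were called, all 24 over 1 in absolute log2 difference, 58.3% of them higher in the RB/HP control, and 3 of the 644 list members. After quantile normalization was repeated on those 6 arrays, 39 were called, 39 over 1, 69.2% higher, with 5 list members. With separate variances of the groups, 0 were called, 0 over 1 and 0 list members, while 2364 had an unadjusted p under 0.05. With array medians subtracted 50.5% of calls were higher. An adjusted p under 0.01 left 293 calls, 211 over 1, and 30 list members. With the replicate number as a block across the sets, chosen after seeing the data for all 18 arrays, 2917 were called and 171 list members, and over the 6 control arrays 1393. With 1 control array left out, calls ranged between 386 and 3724, those over 1 between 248 and 1263, and list members between 38 and 145. HP arrays alone gave 1424 calls against MV and IC. Of 125 named genes called, 0 changed direction in these settings. This was largely fixed beforehand. Several settings keep the difference itself, and leaving out 1 array cannot reverse it where the sets do not overlap. Of the 125, 114 lost the call with the 6 arrays alone and 19 with those 6 arrays and the number as a block. At an adjusted p under 0.01 69 lost it, and with 1 array left out 4 to 65. The cause of these shifts was not tested.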

Other observations

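The transcripts with the largest SD within a set were not the same in both sets. ATSDI1, a gene of the sulfur starvation response, had 4.71, 8.22 and 4.49 in the RB/HP control and 3.53, 5.03 and 3.72 in the MV/IC control. MSRB5, a methionine sulfoxide reductase, had 8.06, 9.90 and 5.91 in the RB/HP control and 5.11, 5.78 and 4.97 in the MV/IC control. For both, array 2 was the highest of each set. The nitrate transporter gene NRT2.3 had 8.31, 5.25 and 5.14 in the RB/HP control and 3.83, 3.71 and 3.57 in the MV/IC control, where the groups did not overlap. The small heat shock protein HSP17.6II had 3.79, 4.76 and 3.66 in the RB/HP control and 4.04, 7.38 and 6.82 in the MV/IC control, and the plastid gene rpl16 8.96, 6.72 and 9.68 in the RB/HP control and 5.19, 5.28 and 8.37 in the MV/IC control, both with overlap between the sets.

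The direction of the calls changed with the level of the probe set. Among 8386 probe sets with a mean between 2 and 4 on the log2 scale, 159 were higher and 20 lower in the RB/HP control (median difference 0.122), and among 5325 with a mean between 6 and 8, 161 were higher and 448 lower (median difference −0.163).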
